A study of Mus musculus with 12 samples.

Results

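The genes described here make cholesterol from acetyl-CoA, take it up from outside the cell, move it between compartments and sense its level. They were chosen by name, with earlier results of these data known, as 33 genes of sterol synthesis, uptake, transport and regulation. Each gene was read through the probe set with the highest mean over 12 arrays among the probe sets annotated to that gene alone. By this rule 30 of the 33 genes were measured, among 18193 genes in all. Acat2, Soat1 and Soat2 had no probe set of their own and were not analysed here. The 30 measured genes comprised 6 enzymes of the mevalonate part of the pathway, 11 enzymes of the part between farnesyl diphosphate and cholesterol, 7 regulators and 6 genes of uptake and transport.

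The tissue was mouse yolk sac, the extraembryonic membrane that nourishes the early embryo and forms its first blood. There were 4 groups of 3 arrays each, which were Norrin yolk sacs at embryonic day 10.5 (E10.5), wild type yolk sacs at E10.5, Norrin yolk sacs at E8.5 and wild type yolk sacs at E8.5. The Norrin groups carried Z/Norrin, a conditional over-expression allele that makes Norrin ectopically. Norrin is a secreted protein that binds Frizzled4 on the cell surface and acts through beta-catenin. All groups shared a mixed C57Bl6/129 background and mixed gender, and the yolk sacs of 3 to 5 embryos were pooled for each sample. The sources used here name neither the Cre driver of the Z/Norrin allele nor when it was activated. Each replicate was a separate pool of embryos, and samples are called pools below.

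As background, cholesterol synthesis begins with acetyl-CoA units that are joined and reduced to mevalonate, which is turned into isoprenoid units and then into squalene. Squalene is closed into lanosterol, and a series of demethylations, reductions and isomerisations leads to cholesterol. When sterols in the endoplasmic reticulum are scarce, the escort protein SCAP carries the SREBP proteins, products of Srebf1 and Srebf2, to the Golgi, where they are cut and freed to activate genes of synthesis and uptake. INSIG proteins hold SCAP back when sterols are plentiful, and the liver X receptor encoded by Nr1h3 is activated by oxysterols. The visceral endoderm of the yolk sac is the epithelium that takes up maternal lipoproteins and exports lipoproteins to the embryo, and defects of cholesterol synthesis disturb mouse development.

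Promoters of these genes, from RefSeq on build GRCm38.p6 (250 bases before to 50 after each start), were searched on both strands for 3 short motifs of SREBP-driven promoters. These were TCACNCCAC, the core of the sterol response element bound by SREBP, CCAAT, the box bound by NF-Y, and GGGCGG, a box bound by Sp1. Of the 30 measured genes, 24 had a promoter in the table and 34 promoters in all, while Fdft1, Fdps, Npc1, Scarb1, Sqle and Stard4 had none there. At least 1 CCAAT box was found in 22 of the 24 genes (91.7%), against 42.0% of the 14452 measured genes with a promoter. Counted over promoters, 67.6% of the 34 and 37.4% of all 18109 held it. GGGCGG was found in 21 of 24 genes (87.5%) against 57.3%. The sterol response element core was found in 1 of 24 genes (4.17%), Hmgcs1, against 1.46%. No motif overlapped another in these promoters, and a match is a description of the letters, with no measure of binding. A gene with several starts had more windows to match, and no test was run on these shares.

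The 3 promoters below are shown because Hmgcs1 is the only gene with the sterol response element core, Lss is the synthesis enzyme with the largest Norrin difference at E10.5, and Vldlr is the receptor that rose. Capitals mark the sterol response element core and CCAAT boxes on either strand, so that ATTGG is a CCAAT box read from the other strand. Each lies on the plus strand at chr13:119690101-119690400 (Hmgcs1), chr10:76531355-76531654 (Lss) and chr19:27216770-27217069 (Vldlr). In Hmgcs1 the core starts 137 bases before the start of the gene.
Hmgcs1: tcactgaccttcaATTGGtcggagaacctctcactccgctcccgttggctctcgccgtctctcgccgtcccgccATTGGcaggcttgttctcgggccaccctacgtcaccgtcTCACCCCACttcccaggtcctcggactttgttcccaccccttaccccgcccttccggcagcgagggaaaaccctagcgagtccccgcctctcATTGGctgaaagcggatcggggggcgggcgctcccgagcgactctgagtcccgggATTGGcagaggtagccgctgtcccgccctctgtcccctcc
Lss: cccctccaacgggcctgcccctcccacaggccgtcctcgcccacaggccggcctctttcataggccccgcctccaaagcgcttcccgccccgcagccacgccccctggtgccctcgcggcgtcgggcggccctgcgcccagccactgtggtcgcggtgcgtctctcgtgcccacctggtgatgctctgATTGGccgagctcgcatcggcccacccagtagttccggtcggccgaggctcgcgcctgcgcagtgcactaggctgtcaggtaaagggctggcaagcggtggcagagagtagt
Vldlr: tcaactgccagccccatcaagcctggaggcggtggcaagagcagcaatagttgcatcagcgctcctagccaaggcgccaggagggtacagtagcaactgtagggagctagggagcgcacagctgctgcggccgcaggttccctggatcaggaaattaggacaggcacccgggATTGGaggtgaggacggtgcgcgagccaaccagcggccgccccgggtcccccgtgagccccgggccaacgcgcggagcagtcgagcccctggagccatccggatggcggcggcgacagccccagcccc

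In Hmgcs1 4 CCAAT boxes were present, and Lss and Vldlr had 1 each in the windows shown. The other start of Vldlr had none.

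The arrays gave log2 expression values after RMA, which corrects background, equalises the distributions of the arrays and joins the probes of a probe set into a single value. Array medians were 6.97 to 7.01 at E10.5 and 6.59 to 6.73 at E8.5, and over all genes the standard error of the difference between Norrin and wild type had a median of 0.16. The number of arrays limits the precision, since an array has no read depth. Visceral endoderm transcripts were abundant in every group. For example, Ttr, a carrier of thyroid hormone, averaged 14.34 in Norrin and 14.38 in wild type at E10.5, and Afp, a serum protein of the yolk sac endoderm, averaged 14.67 in Norrin and 14.71 in wild type. At E8.5 Afp averaged 13.42 in Norrin and 14.47 in wild type, a difference of -1.05 (limma adjusted p = 0.234). No marker of the 8 cell type lists lay below 5.5 on all 12 arrays. In bulk tissue, fewer cells of a type and less RNA per cell cannot be told apart.

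Some pools had high levels of single markers of neighbouring tissues. Tpbpa, a spongiotrophoblast marker, was 11.90 in Norrin E10.5 replicate 2 and 5.63 to 6.55 in the other 5 E10.5 pools. Prl8a2, a decidual marker, was 9.84 and 10.23 in Norrin E10.5 replicates 1 and 3, against 6.98 to 7.70 in the other 4 E10.5 pools. In the E8.5 pools of both genotypes Prl8a2 was 8.65 to 10.56. At E8.5 the summed trophoblast level, of the 3 of 7 markers measured, was 9.96 to 11.39 in Norrin and 9.43 to 9.86 in wild type. At E10.5 it was 10.35 to 12.46 in Norrin and 8.54 to 9.85 in wild type. In Norrin replicates 1 and 3 most of that sum was Plac1, at 10.28 and 10.11. The other markers of these lists did not all move alike at E10.5. Norrin differed from wild type by 1.47 for Plac1 and 0.12 for Ascl2 among trophoblast markers. Among decidual markers it differed by 0.54 for Dcn, 0.38 for Igfbp5 and -0.75 for Alpl. Results of the E10.5 comparison are also given without each of these Norrin pools. Every Norrin E10.5 pool had a high value of Tpbpa or Prl8a2, so leaving out a single pool still keeps pools with such signals. Those fits therefore cannot show the part of these tissues in the results, which was not tested.

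At E10.5, 1 of the 30 genes rose with Norrin and 3 fell. Tests were limma fits across all genes with Benjamini-Hochberg adjustment and a threshold of 0.05. Vldlr, a lipoprotein receptor, was higher with Norrin, against 1.85% of all genes called higher. Scarb1, Nr1h3 and Lss were lower, against 2.22% of all genes called lower. The median change of the 30 genes was -0.34 on the log2 scale, with 7 changes above 0 and 23 below. Over all genes the median was 0.00, with 51% below 0. In that fit, 16 of the 30 had an unadjusted p under 0.05, where 2555 of 18193 genes had one. Pools with the same replicate number within a stage deviated together, though weakly for replicates 2 and 3 at E10.5 (correlations of 0.21 and 0.22). A fit with the replicate number as a block within each stage called 1 gene higher and 11 lower. With 1 replicate block across both stages, 1 was higher and 4 lower, with Mvd added (limma adjusted p = 0.0284). The genes added by the block within stage were Mvd, Fdps, Sqle, Msmo1, Nsdhl, Hsd17b7, Srebf1 and Srebf2, all lower. The block within stage called 6.39% of all genes higher and 6.8% lower. Without Norrin replicate 2, the limma fit without the block called 1 higher and 4 lower, with Mvd (-0.92, adjusted p = 0.029) and Msmo1 (-0.91, adjusted p = 0.017) added and Scarb1 lost. Without Norrin replicate 1 it called 3 genes, and without Norrin replicate 3 it called 2. In the plot of changes by role the genes added by the block are set apart by colour.

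**Figure D1:**
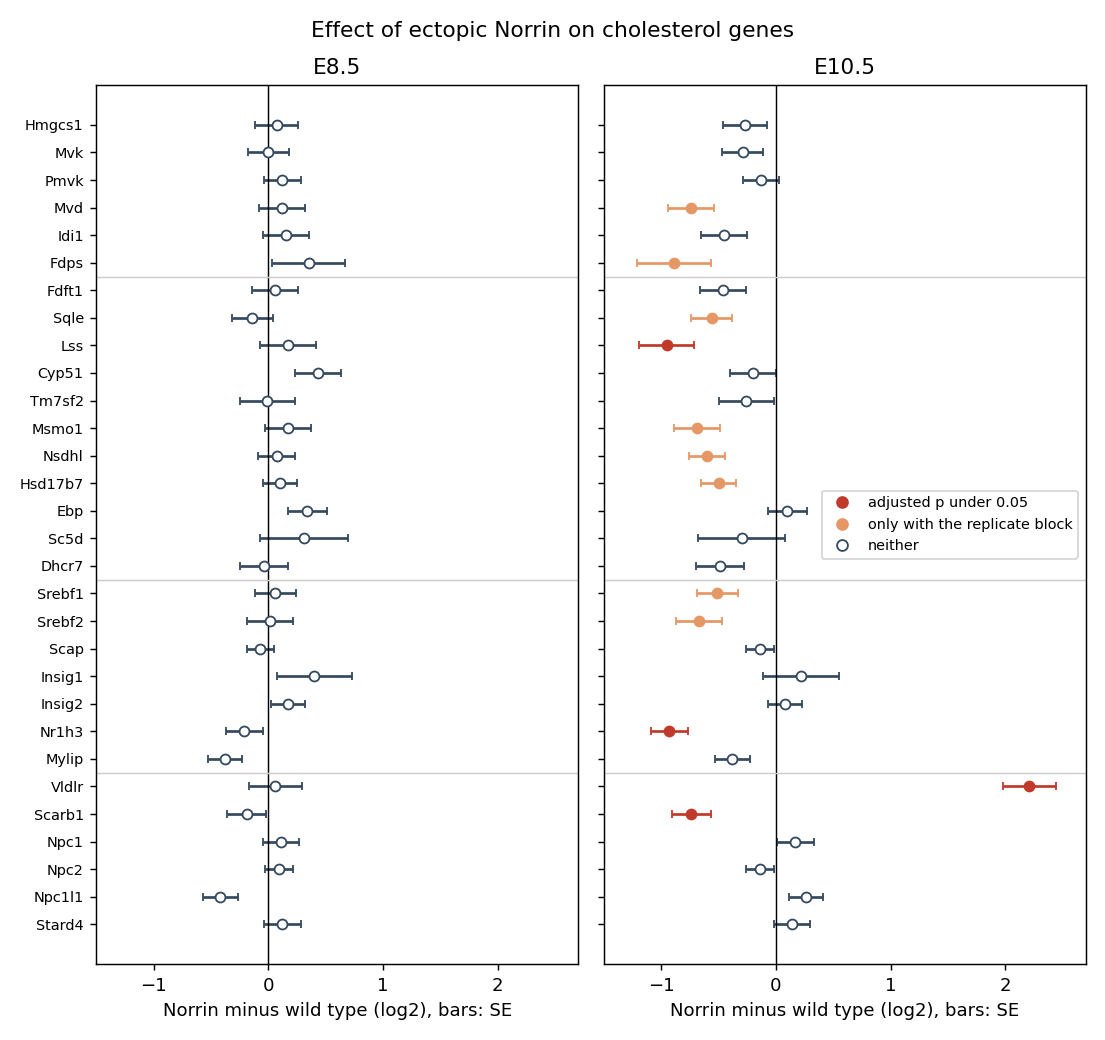
Log2 difference, Norrin minus wild type, of each of the 30 genes (rows, grouped by role) at E8.5 (left) and E10.5 (right), with SE bars. Filled points passed the limma threshold, in a lighter colour where only the fit with the replicate block did. At E10.5 23 of the 30 changes lay below 0 and Vldlr stood at 2.21.

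All 3 Norrin pools lay below all 3 wild type pools for 13 of the 30 genes at E10.5, where 11.5% of all genes did so. All 3 Norrin pools lay above for Vldlr and Npc1, where 11.4% of all genes did so. The 13 genes were Idi1, Fdps, Sqle, Lss, Msmo1, Nsdhl, Hsd17b7, Dhcr7, Scarb1, Srebf1, Srebf2, Nr1h3 and Mylip. They came from every role.

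Vldlr encodes the very low density lipoprotein receptor, which binds apolipoprotein E. Its log2 values were 9.10, 9.88 and 9.71 in the Norrin pools and 7.03, 7.26 and 7.78 in the wild type pools at E10.5. Every Norrin pool lay above every wild type pool. The mean was 9.57 ± 0.41 in Norrin and 7.36 ± 0.39 in wild type (SD, n = 3 each), a change of 2.21 (SE 0.23, limma adjusted p = 0.000484), or 4.62-fold. The 95% interval of the change was 1.70 to 2.71. The other 5 probe sets of Vldlr gave 2.49, 1.15, 0.77, 0.72 and 0.20, all above 0, so the size of the change depended on the probe set. The probe set used ranked first over 12 arrays (6.43 against 6.31 for the next) only with the Norrin E10.5 pools counted. That next probe set, which gave 0.72, averaged 6.20 in wild type at E8.5, where the one used averaged 4.36. With the mean of all probe sets the change was 1.25 (limma adjusted p = 0.000268). Leaving out any 1 E10.5 pool gave 2.04 to 2.44. Without Norrin replicate 2, the pool with the high Tpbpa, it was 2.05 (limma adjusted p = 0.00136).

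**Figure D2:**
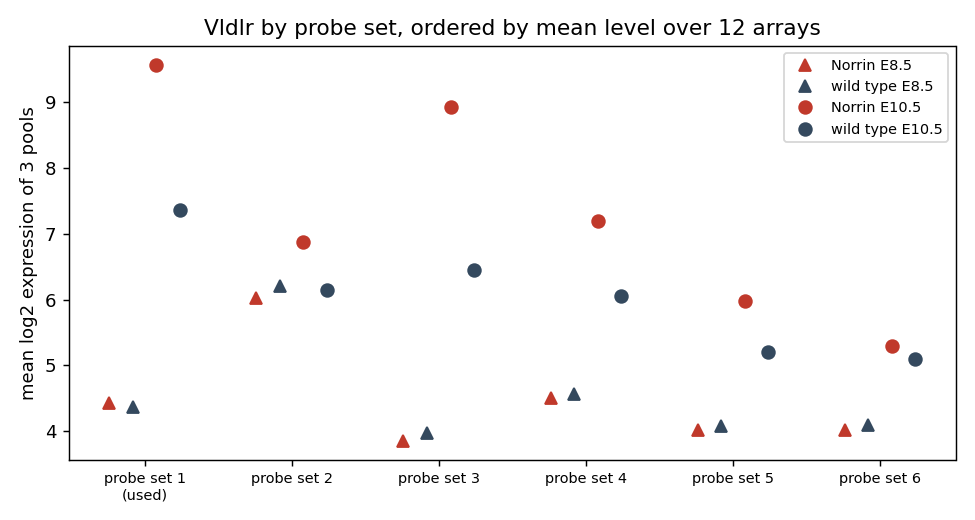
Mean log2 expression of 3 pools for each of the 6 probe sets of Vldlr, as triangles at E8.5 and circles at E10.5, with Norrin left of wild type. At E10.5 Norrin lay above wild type in all 6. The probe set used averaged 9.57 in Norrin and 7.36 in wild type at E10.5.

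Scarb1 encodes SR-BI, a receptor that takes up cholesterol esters from high density lipoprotein. At E10.5 it read 11.11, 10.72 and 10.70 in the Norrin pools and 11.90, 11.29 and 11.57 in the wild type pools. The groups did not overlap. The mean was 10.84 ± 0.23 in Norrin and 11.59 ± 0.30 in wild type (SD, n = 3 each), a change of -0.74 (SE 0.17, limma adjusted p = 0.0264), 1.67-fold lower. Its other 2 probe sets gave -0.60 and -0.66. The call was lost without wild type replicate 1 (-0.59, adjusted p = 0.0928), wild type replicate 3 (-0.75, adjusted p = 0.0774), Norrin replicate 2 (-0.68, adjusted p = 0.0896) or Norrin replicate 3 (-0.67, adjusted p = 0.127), all from limma.

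The other 4 genes of uptake and transport did not pass the test, with or without the block. Npc1l1, the sterol importer of absorptive epithelia, read 7.88, 8.17 and 7.90 in Norrin and 7.94, 7.64 and 7.60 in wild type, a difference of 0.26 (SE 0.15, limma adjusted p = 0.554). Its groups overlapped. Npc1, which exports cholesterol from the late endosome, read 10.27, 10.22 and 10.44 in Norrin and 10.22, 10.12 and 10.09 in wild type, a difference of 0.17 (SE 0.16, limma adjusted p = 0.803). Npc2, its soluble partner, differed by -0.14, and Stard4, a soluble sterol carrier, by 0.14. The median of the 6 uptake and transport genes was 0.16.

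Among the 17 synthesis enzymes, 16 were below 0 at E10.5, with a median of -0.46 and a range of -0.95 to 0.10. Below 0 lay 51% of all genes. Lss alone passed the test, and 7 of the 17 passed with the block, all lower. Of all genes, 2.22% were called lower without the block and 6.8% with it. The exception above 0 was Ebp, the sterol isomerase, at 0.10 (SE 0.17). In per-pool terms, the median enzyme stood at -0.45, -0.26 and -0.54 in the 3 Norrin pools, relative to the wild type mean, and at 0.06, 0.19 and -0.27 in the 3 wild type pools. Wild type replicate 3, at -0.27, thus lay beside Norrin replicate 2, at -0.26.

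**Figure D3:**
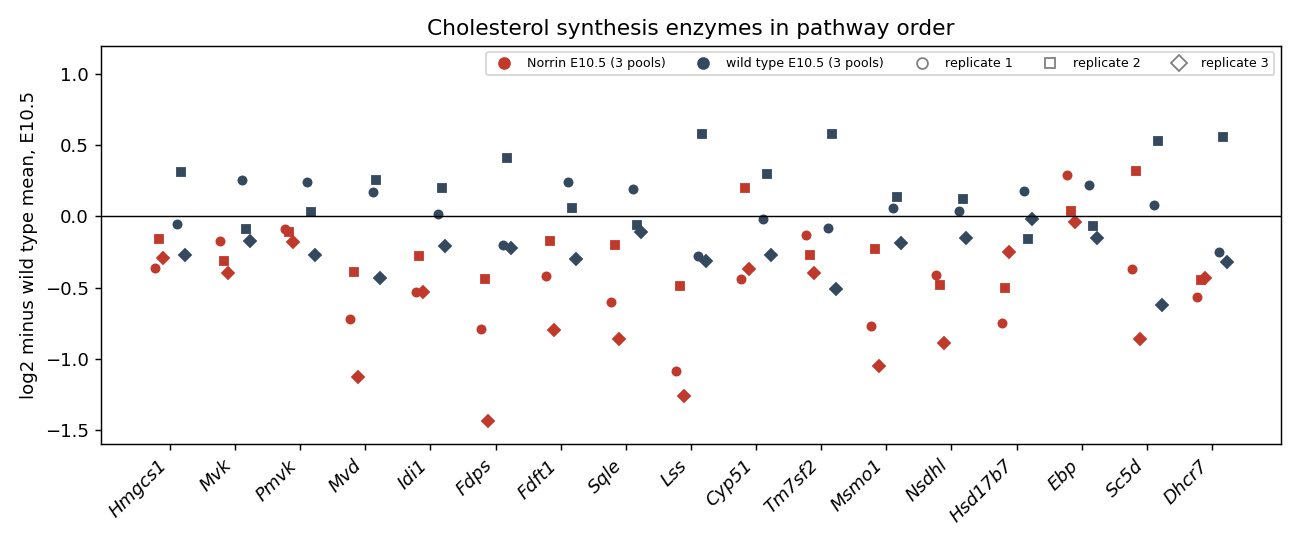
Log2 value of each of the 17 synthesis enzymes, in pathway order, in each E10.5 pool minus the wild type mean, with Norrin left of wild type and the marker shape giving the replicate. The median enzyme lay at -0.45, -0.26 and -0.54 in the Norrin pools.

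In the arm between farnesyl diphosphate and cholesterol (11 enzymes, median -0.49), Lss, the cyclase that closes squalene epoxide into lanosterol, had the largest change. Lss read 9.28, 9.88 and 9.11 in Norrin and 10.09, 10.95 and 10.06 in wild type. The highest Norrin pool lay just below the lowest wild type pool. The change was -0.95 (SE 0.24, limma adjusted p = 0.0451; with the block 0.000381), with means of 9.42 ± 0.41 in Norrin and 10.37 ± 0.50 in wild type (SD, n = 3 each), 1.93-fold lower in Norrin. The other 2 probe sets of Lss gave -0.24 and -0.87. The call of Lss was lost when wild type replicate 1 (-1.08, adjusted p = 0.0561), wild type replicate 2 (-0.66, adjusted p = 0.136), wild type replicate 3 (-1.10, adjusted p = 0.0508), Norrin replicate 1 (-0.87, adjusted p = 0.149) or Norrin replicate 3 (-0.79, adjusted p = 0.209) was left out of the limma fit. Without Norrin replicate 2 it stood at -1.18 (limma adjusted p = 0.0179).

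Msmo1, the methylsterol oxidase, read 10.12, 10.66 and 9.84 in Norrin and 10.95, 11.03 and 10.70 in wild type. Every Norrin pool was below every wild type pool, though the gap at its narrowest was small. The change was -0.69 (SE 0.20, limma adjusted p = 0.0843; with the block 0.00909). Its other probe set gave -0.15. Nsdhl, which removes the carboxyl group of the sterol intermediate, read 9.99, 9.92 and 9.51 in Norrin and 10.44, 10.52 and 10.25 in wild type. Its 2 groups were apart as well, and its change was -0.60 (SE 0.16, limma adjusted p = 0.055; with the block 0.00659).

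Sqle, squalene epoxidase, read 10.19, 10.59 and 9.93 in Norrin and 10.98, 10.73 and 10.68 in wild type, a difference of -0.56 (limma adjusted p = 0.142; with the block 0.0316). Hsd17b7, a ketosteroid reductase of the same arm, read 8.73, 8.98 and 9.23 in Norrin and 9.66, 9.32 and 9.46 in wild type, a difference of -0.50 (limma adjusted p = 0.0886; with the block, limma adjusted p = 0.0464). Both genes had every Norrin pool below every wild type pool. For Hsd17b7 the other 3 probe sets gave -0.43, -0.33 and -0.06. Dhcr7, the last reductase, differed by -0.49, and Fdft1, squalene synthase, by -0.46. The values of Dhcr7 were 9.71, 9.83 and 9.85 in Norrin and 10.03, 10.84 and 9.96 in wild type, where 1 wild type pool was high. Fdft1 was measured by 4 probe sets, and the 3 not used gave -0.25, 0.15 and 0.17. Cyp51, Tm7sf2, Sc5d and Ebp lay between -0.30 and 0.10.

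The 6 mevalonate enzymes had a median of -0.37 at E10.5. Fdps, which makes farnesyl diphosphate, read 10.90, 11.25 and 10.25 in Norrin and 11.49, 12.10 and 11.47 in wild type. No Norrin pool reached a wild type pool. The change was -0.89 (SE 0.32, limma adjusted p = 0.189; with the block 0.00597), 1.86-fold lower. The other probe set of Fdps was dim and gave 0.04. Mvd, the diphosphomevalonate decarboxylase, read 8.15, 8.48 and 7.74 in Norrin and 9.04, 9.13 and 8.44 in wild type. The groups overlapped, since Norrin replicate 2 lay above the lowest wild type pool. The difference for Mvd was -0.74 (SE 0.20, limma adjusted p = 0.0642; with the block 0.00123), and its other probe set gave -0.86. Idi1, which isomerises the isoprenoid unit, read 9.83, 10.08 and 9.83 in Norrin and 10.38, 10.56 and 10.15 in wild type, again without overlap, a difference of -0.45 (SE 0.20, limma adjusted p = 0.325), and its other probe set gave -0.56. The kinase Mvk differed by -0.29, Hmgcs1, the synthase of HMG-CoA, by -0.27 and the kinase Pmvk by -0.13. None of these 4 enzymes passed the test, with or without the block.

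**Figure D4:**
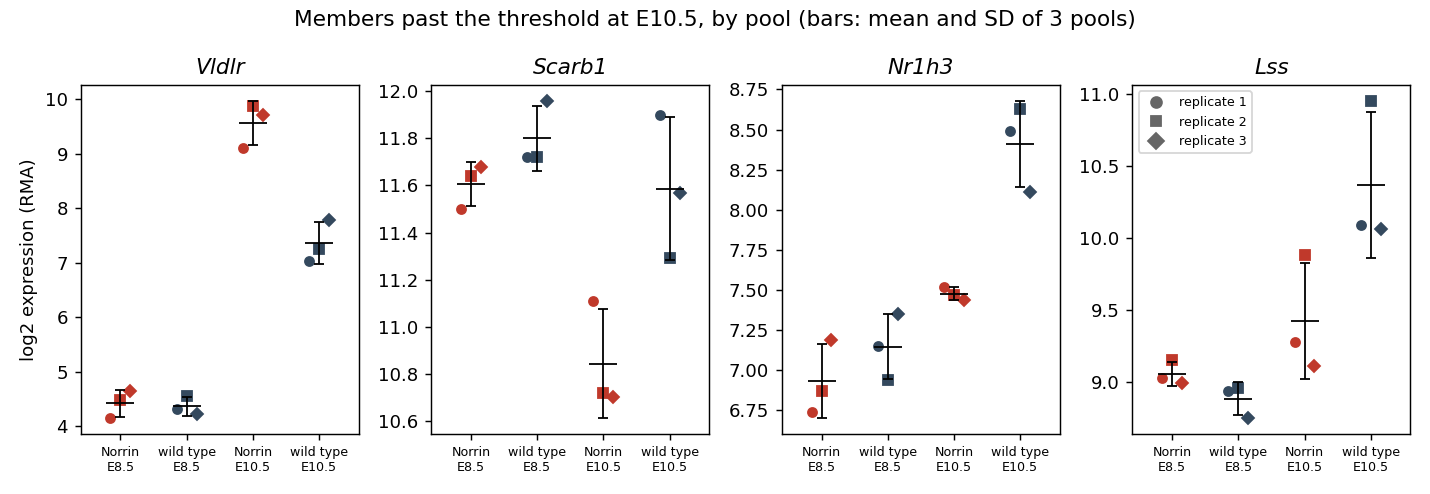
Log2 values by pool of the genes called at E10.5 (Vldlr, Scarb1, Nr1h3 and Lss), with Norrin left of wild type at each stage, and bars for the mean and SD of 3 pools. At E10.5 no Norrin pool of Scarb1, Nr1h3 or Lss reached the wild type pools.

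Of the 7 regulators, Nr1h3, the liver X receptor alpha, was called at E10.5 without the block. Nr1h3 read 7.52, 7.47 and 7.44 in Norrin and 8.49, 8.63 and 8.11 in wild type. The Norrin pools were tightly grouped and all below. The means were 7.48 ± 0.04 in Norrin and 8.41 ± 0.27 in wild type (SD, n = 3 each), a change of -0.93 (SE 0.16, limma adjusted p = 0.00738), 1.91-fold lower. Leaving out any 1 E10.5 pool gave -1.08 to -0.82, with limma adjusted p between 0.00649 and 0.0394. Nr1h3 had a single probe set.

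Srebf2, the SREBP that mainly drives cholesterol synthesis, read 10.07, 9.84 and 9.93 in Norrin and 10.79, 10.63 and 10.44 in wild type. The groups were apart. The change was -0.67 (SE 0.20, limma adjusted p = 0.0976; with the block 0.00589), and its other probe set gave -0.57. Srebf1, known to drive fatty acid synthesis and to be a liver X receptor target, read 10.06, 10.31 and 10.19 in Norrin and 10.59, 11.11 and 10.39 in wild type, again without overlap, a difference of -0.51 (SE 0.18, limma adjusted p = 0.178; with the block 0.0433). Mylip, the ubiquitin ligase for lipoprotein receptors and another liver X receptor target, read 11.51, 11.42 and 11.66 in Norrin and 11.84, 12.04 and 11.83 in wild type. Here too the pools did not overlap, but the change of -0.38 (SE 0.15) had a limma adjusted p of 0.253. Scap, Insig2 and Insig1 gave -0.14, 0.08 and 0.22, and the interval of Insig1, -0.49 to 0.93, was the widest of the 3. The median of the 7 regulators was -0.38.

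Markers of several cell types were called at E10.5 as well, where 1.85% of all genes were called higher and 2.22% lower, or 6.39% and 6.8% with the block. The 8 parietal endoderm markers summed to a log2 level of 15.18 to 15.45 in Norrin and 14.56 to 14.69 in wild type, and 3 of 8 were higher (6 with the block). The 10 of 11 visceral endoderm markers measured summed to 16.65 to 16.73 in Norrin and 16.90 or more in every wild type pool, with 1 higher and 2 lower (4 with the block). Sox17, the 1 called higher, had the largest change of the list. It averaged 10.52 in Norrin and 7.55 in wild type (2.97, limma adjusted p = 0.00107). The 2 called lower were Apoa1, an apolipoprotein, at 13.59 in Norrin and 14.37 in wild type (-0.78, limma adjusted p = 0.00677), and Hnf4a, a transcription factor of the endoderm, at 11.35 in Norrin and 12.06 in wild type (-0.71, limma adjusted p = 0.0149). Apob, the structural apolipoprotein of secreted particles, differed by -0.74 (limma adjusted p = 0.0693). Rbp4, Cubn, Afp, Ttr, Foxa2 and Amn differed by -0.34 to 0.08 and were not called without the block. Of erythroid markers, 7 of 8 were measured, and 4 were lower (6 with the block), with sums of 15.66 to 15.81 in Norrin and 15.92 to 16.37 in wild type. Macrophage markers (6 genes, 1 lower) summed to 10.73 to 11.89 in Norrin and 11.83 to 12.34 in wild type. Mesenchyme markers (8 genes, 2 higher, or 4 with the block) summed to 16.02 to 16.04 in Norrin and 15.60 to 15.85 in wild type. Endothelial markers (7 genes) summed to 11.27 to 11.61 in Norrin and 11.05 to 11.61 in wild type, where limma called 0 without the block, with 1 at unadjusted p under 0.05, and 1 higher with it.

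Decidual markers (4 genes) summed to 12.20 to 12.45 in Norrin and 11.69 to 11.92 in wild type, where limma called 0 without the block, with 2 at unadjusted p under 0.05, and 1 higher and 1 lower with it. Of the 3 trophoblast markers limma called 0 in either fit, with 1 at unadjusted p under 0.05 without the block. At E8.5 the sums also lay apart for visceral endoderm, at 16.47 to 16.73 in Norrin and 16.90 to 16.95 in wild type. Sox17, of that list, was called higher at E8.5 (2.71, limma adjusted p = 0.0171), where 0.077% of all genes were called in either direction. Parietal endoderm sums lay apart at E8.5 too, at 14.56 to 15.06 in Norrin and 14.13 to 14.42 in wild type. Macrophage sums, which overlapped at E10.5, lay narrowly apart at E8.5, at 9.53 to 9.81 in Norrin and 9.84 to 10.32 in wild type. Limma called 0 markers of these latter lists at E8.5 without the block. The part of these shifts in the changes of the sterol genes was not tested.

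At E8.5 none of the 30 genes passed the test, where 0.077% of all genes were called in either direction. Limma gave 2 of them an unadjusted p under 0.05, Npc1l1 and Mylip, both lower, where 1314 of 18193 genes had one, and the smallest adjusted p was 0.608. With the block, 0 of 30 passed (limma, 1.41% of all genes), with a smallest adjusted p of 0.0954, and 7 had an unadjusted p under 0.05, where 3895 of 18193 genes had one. Changes ran from -0.42 to 0.43, with a median of 0.08 against -0.02 over all genes. Of the 30, 21 lay above 0 and 9 below, where 53.9% of all genes lay below. All 3 Norrin pools lay above all wild type pools for Lss and Cyp51, where 5.89% of all genes did so, and below for Scarb1, where 6.02% of all genes did so.

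By role, the genes that differed most at E8.5 did so with overlapping groups for all but Cyp51 and Scarb1. Cyp51, the lanosterol demethylase, read 8.02, 7.95 and 7.87 in Norrin and 7.79, 7.53 and 7.23 in wild type, a change of 0.43 (SE 0.20, limma adjusted p = 0.694). Insig1 read 7.60, 7.23 and 7.47 in Norrin and 7.34, 7.14 and 6.63 in wild type, a change of 0.40 (SE 0.33). Npc1l1 read 8.08, 7.70 and 7.66 in Norrin and 8.39, 8.24 and 8.06 in wild type, a change of -0.42 (SE 0.15). Only Cyp51 among these 3 had separate groups.

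Mylip read 11.01, 10.80 and 11.35 in Norrin and 11.45, 11.59 and 11.26 in wild type, a difference of -0.38 (SE 0.15). Nr1h3 read 6.74, 6.87 and 7.19 in Norrin and 7.15, 6.94 and 7.35 in wild type, a difference of -0.21 (SE 0.16). Both overlapped. Lss read 9.03, 9.15 and 8.99 in Norrin and 8.94, 8.96 and 8.75 in wild type, a difference of 0.17 (SE 0.24, limma adjusted p = 0.872). Its lowest Norrin pool lay just above its highest wild type pool, and its other 2 probe sets gave 0.02 and -0.03. Scarb1 read 11.50, 11.64 and 11.68 in Norrin and 11.72, 11.72 and 11.96 in wild type, without overlap, a difference of -0.19 (SE 0.17, limma adjusted p = 0.791). Fdps read 9.89, 9.50 and 10.09 in Norrin and 9.77, 8.76 and 9.91 in wild type, a difference of 0.35 (SE 0.32). In Fdps the low wild type replicate 2 set the mean apart while the other pools overlapped. Ebp read 9.40, 9.48 and 9.89 in Norrin and 9.28, 8.98 and 9.48 in wild type, a difference of 0.34 (SE 0.17). Sc5d, the sterol desaturase, read 9.12, 8.59 and 9.49 in Norrin and 8.87, 8.11 and 9.31 in wild type, a difference of 0.31 (SE 0.38). Both overlapped, and in Sc5d replicate 2 was the lowest pool of either genotype. Idi1 read 9.48, 9.35 and 9.25 in Norrin and 9.42, 9.52 and 8.69 in wild type, a difference of 0.15 (SE 0.20). Mvd read 7.60, 7.70 and 7.53 in Norrin and 7.42, 7.53 and 7.51 in wild type, a difference of 0.12 (SE 0.20). Stard4 read 10.91, 10.70 and 10.96 in Norrin and 11.10, 10.53 and 10.58 in wild type, a difference of 0.12 (SE 0.16). Pools of the 2 groups overlapped in Idi1 and Stard4, and in Mvd the lowest Norrin pool met the highest wild type pool.

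Of the 17 synthesis enzymes, 13 were above 0 and 4 below, with a median of 0.12, where 53.9% of all genes were below 0. In per-pool terms, the median enzyme stood at 0.15, 0.09 and 0.25 in Norrin, relative to the wild type mean, and at 0.05, -0.05 and 0.07 in wild type. Standard errors of the 30 differences ran from 0.12 to 0.38.

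Whether the Norrin effect differed between the stages was tested as an interaction, the Norrin effect at E10.5 minus the Norrin effect at E8.5. Vldlr passed, with 2.15 (SE 0.33, limma adjusted p = 0.0372), where 0.0934% of all genes were called. The Norrin effect of Vldlr was 2.21 at E10.5 and 0.06 at E8.5. At E8.5 its values were 4.15, 4.47 and 4.64 in Norrin and 4.31, 4.56 and 4.22 in wild type, near the bottom of the scale, where 6.12% of genes had a lower mean. The interaction call was lost when any of 7 of the 12 pools was left out (adjusted p = 0.0663 to 0.134). Those pools were wild type replicates 1 and 2 at both stages, Norrin replicates 1 and 2 at E8.5 and Norrin replicate 3 at E10.5. With the block it stood at adjusted p = 0.00377. The probe set used for Vldlr ranked first only with the Norrin E10.5 pools counted, and the interaction tests those same pools. Its size therefore depends on that choice. The other probe sets of Vldlr gave Norrin effects of 0.20 to 2.49 at E10.5 and -0.18 to -0.06 at E8.5. With the mean of all probe sets the interaction was 1.33 (limma adjusted p = 0.0134).

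All 17 synthesis enzymes had a more negative Norrin effect at E10.5 than at E8.5, with differences of -1.24 to -0.24 and a median of -0.60. Of all genes, 45.7% had a negative difference. The 17 were read in the same pools, so their signs are not independent observations. The median over the 30 genes was -0.43, and over all genes 0.03. Without the block, 0 of the 17 passed the limma interaction test and 7 had an unadjusted p under 0.05, where 1275 of 18193 genes had one. With the block, 3 of them were called, Lss (-1.12, limma adjusted p = 0.00572), Mvd (-0.87, limma adjusted p = 0.0155) and Fdps (-1.24, limma adjusted p = 0.0251), with 2.07% of all genes called in either direction. The Norrin effects of Lss were -0.95 at E10.5 and 0.17 at E8.5, those of Mvd -0.74 at E10.5 and 0.12 at E8.5, and those of Fdps -0.89 at E10.5 and 0.35 at E8.5. The same wild type and Norrin pools enter both the interaction and its parts.

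Of the 17 synthesis enzymes, 10 were higher and 1 was lower at E10.5 than at E8.5 in Norrin (median 0.84), and 15 were higher in wild type (median 1.38). Pairs of arrays across stages shared 0 identical values and pairs within a stage shared 26 to 93, as separate RMA runs of the stages would give. The submitters' notes do not state how the runs were made, and stage and such a run cannot be told apart. In Norrin, 15 of the 30 genes were higher at E10.5 and 2 lower, Scarb1 and Hsd17b7, where 28.2% of all genes were called higher and 9.69% lower. In wild type, 23 were higher and 1 lower, Npc1l1, where 25.4% of all genes were called higher and 7.12% lower. The median change was 0.53 in Norrin and 1.07 in wild type, against 0.15 and 0.14 over all genes in the same groups.

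These counts depend on how the arrays are scaled between stages. As deposited, 5133 genes were higher and 1762 lower in Norrin, and 4619 higher and 1296 lower in wild type. With each array centred on its median, the counts were 2345 higher and 5943 lower in Norrin, and 2340 higher and 4816 lower in wild type. After quantile normalisation of all 12 arrays, they were 3061 higher and 3587 lower in Norrin, and 2909 higher and 3373 lower in wild type. The median over all genes was -0.21 in Norrin and -0.16 in wild type when centred, and -0.05 in both after quantile normalisation.

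Of the 30 sterol genes, 9 were then higher and 2 lower in Norrin when centred (median 0.17), and 14 higher and 2 lower after quantile normalisation (median 0.47). In wild type, 20 were higher and 2 lower when centred (median 0.77), and 22 higher and 1 lower after quantile normalisation (median 0.97).

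**Figure D5:**
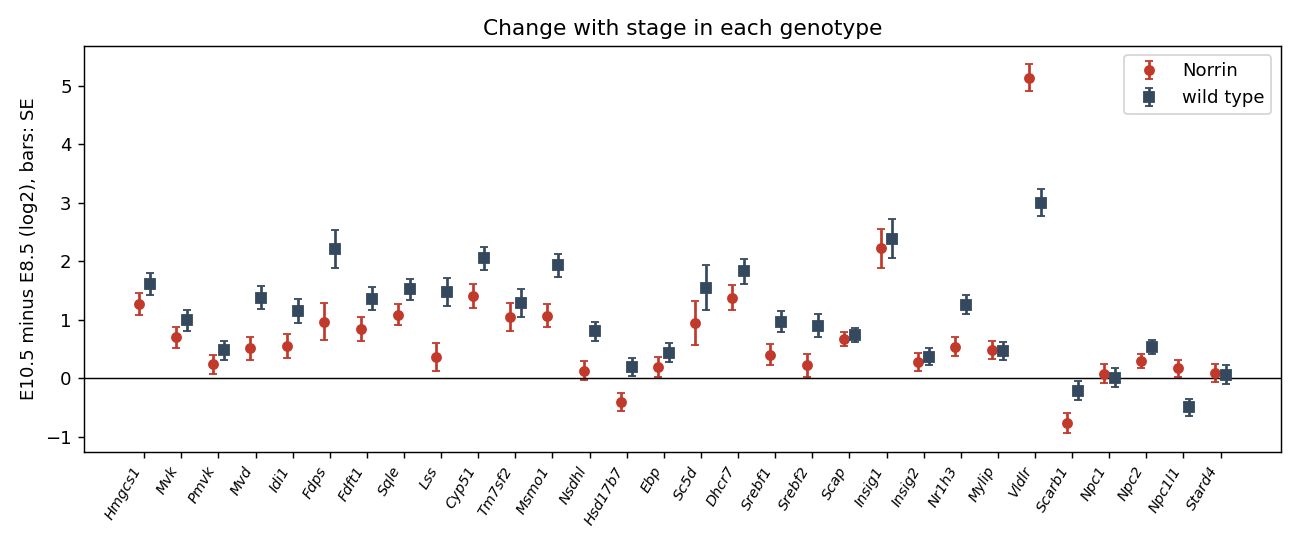
Log2 difference, E10.5 minus E8.5, of each of the 30 genes, with Norrin (circles) left of wild type (squares) and SE bars. The median change was 0.53 in Norrin and 1.07 in wild type.

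By role, the 6 mevalonate enzymes had median changes of 0.63 in Norrin and 1.27 in wild type, with 4 called higher in Norrin and 6 in wild type. Of all genes, 28.2% were called higher and 9.69% lower in Norrin, and 25.4% higher and 7.12% lower in wild type. The 11 later enzymes had medians of 0.95 in Norrin, where 6 were higher and 1 was lower, and 1.48 in wild type, where 9 were higher. The 7 regulators had medians of 0.48 in Norrin, where 4 were higher, and 0.90 in wild type, where 6 were higher. The 6 uptake and transport genes had medians of 0.13 in Norrin and 0.04 in wild type. Vldlr was 5.14 higher at E10.5 in Norrin and 3.00 higher in wild type, both against E8.5 values near the bottom of the scale. Its other probe sets gave -0.05 to 2.48 in wild type. In Norrin they averaged 5.29 to 8.93 at E10.5 and 3.85 to 6.02 at E8.5, where the one used averaged 9.57 and 4.42. The next probe set by mean level averaged 6.87 at E10.5 and 6.02 at E8.5 in Norrin.

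Insig1, the sterol-sensing anchor of SCAP, rose most with stage after Vldlr among the 30 genes. Its values at E10.5 were 8.85, 10.24 and 9.86 in Norrin and 8.99, 9.91 and 9.38 in wild type, and at E8.5 they were 7.60, 7.23 and 7.47 in Norrin and 7.34, 7.14 and 6.63 in wild type. Every later pool lay above every earlier pool in both genotypes. The rise was 2.22 in Norrin and 2.39 in wild type, 4.65-fold and 5.25-fold. Cyp51 rose by 1.41 in Norrin and by 2.05 in wild type. Fdps rose by 0.97 in Norrin and 2.21 in wild type, and Msmo1 by 1.07 in Norrin and 1.93 in wild type. Lss differed by 0.37 in Norrin (limma adjusted p = 0.243) and by 1.48 in wild type (limma adjusted p = 0.000629), where it passed. Nsdhl differed by 0.13 in Norrin and 0.80 in wild type, and Srebf2 by 0.22 in Norrin and 0.90 in wild type, and both passed in wild type and not in Norrin. The difference between the genotypes in such a change is the interaction given above, which these 3 genes did not pass without the block. With the block Lss passed it, while Nsdhl (limma adjusted p = 0.0583) and Srebf2 (limma adjusted p = 0.0677) did not.

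In 2 related lists, of fatty acid and other sterol genes, 1 gene was called at E10.5, where 1.85% of all genes were called higher and 2.22% lower. Of 15 genes of fatty acid synthesis, Elovl6, a fatty acid elongase, was lower at 9.43 ± 0.04 in Norrin and 10.12 ± 0.13 in wild type (SD, n = 3 each), a change of -0.69 (limma adjusted p = 0.00652). With the block, Lpin1 (0.59, limma adjusted p = 0.00574) was also higher and Gpam (-0.54, limma adjusted p = 0.0317) lower, and the median of the list was -0.15. Of 19 of 22 other genes of sterol handling, 0 passed without the block in limma, and 7 had an unadjusted p under 0.05. Such a p was found for 2555 of 18193 genes. With the block, Stard5 (-0.84), Tmem97 (-0.83), Cyp27a1 (-0.47) and Abcg2 (-0.36) were lower and Mbtps1 (0.36), a protease that cuts SREBP, was higher. The median of that list was -0.18. At E8.5 limma called 0 genes of either list, with 1 and 0 at an unadjusted p under 0.05 and medians of 0.15 for fatty acid synthesis and -0.06 for sterol handling. Between the stages, 3 of 15 fatty acid genes were higher at E10.5 in Norrin and 7 of 15 in wild type, and of the 19 sterol handling genes 6 were higher and 1 lower in Norrin and 7 were higher in wild type. Over all genes, 28.2% were higher and 9.69% lower in Norrin, and 25.4% were higher and 7.12% lower in wild type.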

How the data were processed

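Expression was measured on 12 Affymetrix Mouse Genome 430 2.0 arrays. The deposited values are log2 expression. The submitters' processing notes name RMA, without a version, and per those notes the authors deposited its output. The table held 45101 probe sets, of which 34945 were annotated to 1 gene, 932 to several and 9160 were unnamed here, and 64 were controls. Probe sets of 1 gene were kept, and the one with the highest mean over 12 arrays stood for its gene, which left 18193 genes. Names came from the annotation of the platform, and all 30 measured genes matched the RefSeq gene table.

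Limma 3.58.1 in R 4.3.3 fitted the 4 group means to all 12 arrays (residual degrees of freedom 8, prior 4.17), with two-sided tests, Benjamini-Hochberg adjustment over the 18193 genes and a threshold of 0.05. Contrasts were Norrin minus wild type at each stage, their difference, and the stage difference (E10.5 minus E8.5) within Norrin and within wild type. The fit was tested on simulated data. Whether the replicate numbers in the labels pair the pools was checked by the correlation of residuals: same-numbered pools gave 0.51, 0.21 and 0.22 at E10.5 and 0.73, 0.32 and 0.73 at E8.5. Pools of other numbers gave -0.35 to -0.20, -0.23 to 0.02 and -0.33 to 0.16 at E10.5. At E8.5 they gave -0.72 to 0.30, -0.19 to -0.06 and -0.57 to -0.49. Residuals within a group balance each other, so these values are not independent, and the pairing was weak for replicates 2 and 3 at E10.5. Each same-numbered value was above 0.1, so the fit with a block of replicate number within stage is given where it changes a call or a count. This pairing comes from the data, since the labels name no shared litter or day. The block cannot serve the stage contrasts, because stage lies between blocks. Values in every pool at both stages are given for genes called in a Norrin contrast or the interaction without the block, and otherwise for the 3 genes per role that differed most at a stage. The genes and lists were chosen with earlier results of these data known. Alternatives were the block, each stage alone, array weights, other scalings, the mean of probe sets, a filter on dim genes and each pool left out.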

Additional observations from a re-analysis of the deposited data

Results flagged for a closer look

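The Norrin effect on Vldlr differed between the stages by a test of the difference itself, with an effect at E10.5 minus the effect at E8.5 of 2.15 (SE 0.33, limma adjusted p = 0.0372). The probe set used for Vldlr was near the bottom of the scale in both groups at E8.5. It was the one used only because of its high values in the Norrin E10.5 pools. With the mean of all probe sets the difference was 1.33 (limma adjusted p = 0.0134).

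For Lss the same difference was -1.12 (limma adjusted p = 0.352, or 0.00572 with the block), from an effect of -0.95 at E10.5 and of 0.17 at E8.5 (SE 0.24 each, limma adjusted p = 0.872 at E8.5). Lss is listed since every Norrin pool lay below every wild type pool at E10.5 and above every wild type pool at E8.5. At E8.5 the lowest Norrin pool was 8.99 and the highest wild type pool 8.96, 5.89% of all genes lay apart in that direction, and the other 2 probe sets of Lss gave 0.02 and -0.03, so a change at E8.5 was not detected.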

How the results depend on the processing

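Centring turned the split of all genes between the stages, to 2345 higher and 5943 lower in Norrin and 2340 higher and 4816 lower in wild type, with medians over all genes of -0.21 in Norrin and -0.16 in wild type. No alternative turned the sign of the sterol genes' median or of a gene followed. Over the alternatives, 12 results on 11 genes (those called, or at 0.5 or more on the log2 scale before rounding) gave 139 values on the same side of the threshold, 22 that newly passed it and 21 that no longer did, of Lss, Scarb1 and the Vldlr interaction. Norrin against wild type at E8.5: limma called 14 of all genes, 257 with the replicate block within stage, 5 with 1 replicate block across both stages, 0 with the stage alone (951 at an unadjusted p under 0.05), 5147 with array weights and 1 to 19 with a pool left out. Array weights called 6 of the 30 sterol genes, other settings 0, and with a pool left out their median was 0.02 to 0.09. At E10.5 the 4 sterol genes called became 12 with the replicate block within stage, 5 with 1 replicate block across both stages, 10 with array weights, 2 with a filter on dim genes, under which Vldlr and Nr1h3 were not tested, and 2 to 5 with a pool left out. All genes called were 741, then 2400, 724, 2316, 472 and 353 to 580 under the same settings, and the median of the 30 with a pool left out was -0.51 to -0.25. Lss also lost its call with the stage alone (adjusted p = 0.139), centred arrays (0.0506) and the mean of probe sets (-0.68, adjusted p = 0.0603), and Scarb1 with the stage alone (0.0785) and the mean of probe sets (-0.67, adjusted p = 0.0726).

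For the difference between stages, the sterol genes called were 1, then 4 with the replicate block within stage, 1 with 1 block across both stages, 12 with array weights, 0 with the filter (10 at an unadjusted p under 0.05) and 0 to 1 with a pool left out. All genes called were 17, then 376 with the block, 2728 with weights, 29 after quantile normalisation, 37 with the mean of probe sets, 3 with the filter and 5 to 36 with a pool left out. The median of -0.43 became -0.26 with weights, -0.30 with the mean of probe sets and -0.54 to -0.33 with a pool left out. E10.5 against E8.5 in Norrin: 17 sterol genes became 11 with centred arrays and 12 to 17 with a pool left out, all genes 6895 became 11639 with weights, 2641 with the filter and 5242 to 6587 with a pool left out, and the median of 0.53 became 0.17 centred and 0.50 to 0.58 with a pool left out. In wild type, 24 sterol genes became 21 to 24 with a pool left out, all genes 5915 became 10797 with weights, 1918 with the filter and 4311 to 6285 with a pool left out, and the median of 1.07 became 0.77 centred, 0.93 with the mean of probe sets and 1.02 to 1.19 with a pool left out. The filter tested fewer genes. Otherwise the cause was not tested. Dim probe sets, such as the one used for Vldlr at E8.5, limit fold changes.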
